A study of Rattus norvegicus with 20 samples.

Results

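The AMPA and kainate receptor subunits, Gria1 to Gria4 and Grik1 to Grik5, were measured in the arcuate nucleus of female Sprague-Dawley rats on postnatal day 15. The members were the probes, control spots aside, whose gene name on the array is one of these 9 symbols, which gave 14 of the 30367 probes, for 9 of 25926 gene names. After a filter on dim probes, 13 of the 14 probes and 8 of the 9 genes remained, and Grik3 dropped out. Each condition held 4 rats. SNS rats had saline before birth, no spasms and saline after birth. BNS rats had mothers given 2 injections of betamethasone, a synthetic glucocorticoid, at 0.4 mg/kg each on gestational day 15, and had no spasms and saline after birth. BYS rats had the same prenatal betamethasone, spasms triggered with NMDA on postnatal days 12, 13 and 15, and saline as treatment. BYA rats differed from BYS in receiving ACTH, the hormone used against infantile spasms, and BYP rats in receiving PMX53, an antagonist of the complement receptor C5ar1; the labels place these treatments on postnatal days 13, 14 and 15. All 16 rats of BNS, BYS, BYA and BYP thus shared prenatal betamethasone, and no group had spasms without it.

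AMPA and kainate receptors are ion channels opened by glutamate, each built as a tetramer of subunits. AMPA receptors, made of Gria1 to Gria4 (proteins GluA1 to GluA4), carry most fast excitatory transmission in the brain. Gria2 sets whether the channel passes calcium, because its RNA is normally edited at a site in the pore. Kainate receptors contain Grik1, Grik2 or Grik3 (GluK1 to GluK3), which can form channels on their own, and often Grik4 or Grik5 (GluK4 and GluK5), which cannot; they act on both sides of synapses. Auxiliary proteins, such as the TARPs for AMPA and the Neto proteins for kainate receptors, control their gating and transport.

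The probes are strands of 60 bases, and where a gene had more than 1 of them, the probe decided what was seen. The Gria4 probes are shown because they target different transcripts: one is listed for transcript variants 1 and 2 and lies in the coding sequence of the long cytoplasmic tail (chr8:957385-957444, minus strand, build rn4), the other for variant 3 alone (chr8:1016916-1016975, minus strand), 59.5 kb away. The probe for variants 1 and 2 is given whole and that for variant 3 by its first 30 bases.
Gria4 variants 1 and 2: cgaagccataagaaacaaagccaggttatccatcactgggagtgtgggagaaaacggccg
Gria4 variant 3: actgagcaagctatgaatgagtactggaga
One probe of Gria2 (chr2:172269214-172269273, minus strand) and one of Gria3 (chrX:3459714-3459773, minus strand) are shown because they lie at matching places of the coding sequence. They are identical at 36 of the 50 bases at which they can be laid side by side without a gap, which was the closest match among probes of different members. Capitals mark the bases that differ within this overlap.
Gria2: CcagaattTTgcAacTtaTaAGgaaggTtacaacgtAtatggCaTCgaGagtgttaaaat
Gria3: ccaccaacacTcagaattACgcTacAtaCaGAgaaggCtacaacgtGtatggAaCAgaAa
The single Gria1 probe, given because Gria1 differed between BNS and SNS, is a coding sequence for which the file lists no genomic position.
Gria1: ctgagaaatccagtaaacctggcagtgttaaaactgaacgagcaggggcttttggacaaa

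Levels are log2 intensities of 1 dye channel each, after background correction and quantile normalization over the 20 channels, and a difference of 1 is a doubling. Differences were tested with limma, with all 20 samples and the dye in the model, and a gene was called at a Benjamini-Hochberg adjusted p under 0.05 over all genes tested. This fit took channels as independent, although 9 arrays each held 2 rats of the same condition. The fitted correlation within arrays was 0.37. With the array as a random block, 15.2% of all genes were called in BNS against SNS, and 28.6% without it. Each condition had its own slide, and BYA replicate 3 a further one, hence the slide cannot be told apart from the condition. Signal over background, as the median ratio in a sample, ranged from 5.66 to 11.3 among SNS samples and from 6.60 to 10.9 among those of BYA and BYP, while all BNS and BYS samples had ratios of 13.9 to 19.9. The dye label of BYA replicate 3 conflicts with the order in which its array file names the animals, and which rat its channel holds is not certain; without it, Gria4 was higher by 0.51 and Grik5 lower by −0.45 in BYA against SNS, both still called. Of the arcuate neuron markers, 10 of 10 passed the filter, as did 4 of 4 markers of the neighbouring ventromedial hypothalamus and 4 of 5 of the thalamus, against 2 of 7 pituitary markers and 2 of 5 choroid plexus markers. The tissue was dissected whole, and in such samples fewer cells of a type and less RNA per cell cannot be told apart.

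Against SNS, Gria4 was higher in all 4 betamethasone conditions, Gria1 was lower in BNS, and Grik5 was lower in BYA. These 6 calls came from 8 members in 4 comparisons. With the array as a random block, those of Gria1 in BNS, Grik5 in BYA and Gria4 in BYP were lost. The members called numbered 2 of 8 in BNS against SNS, where 28.6% of all genes tested were called, 1 of 8 in BYS against SNS (27.1% of all genes), 2 of 8 in BYA against SNS (31.3%) and 1 of 8 in BYP against SNS (28.9%). Over the 5 conditions, 1 of 8 members (Gria4) was called by the F-test, against 30.3% of all genes. The share of members called was thus at or below that of all genes. The median size of the log2 fold change over the members was 0.17 in BNS, 0.21 in BYS, 0.14 in BYA and 0.17 in BYP, against 0.25, 0.24, 0.25 and 0.25 over all genes. The 4 comparisons share the SNS samples.

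**Figure D1:**
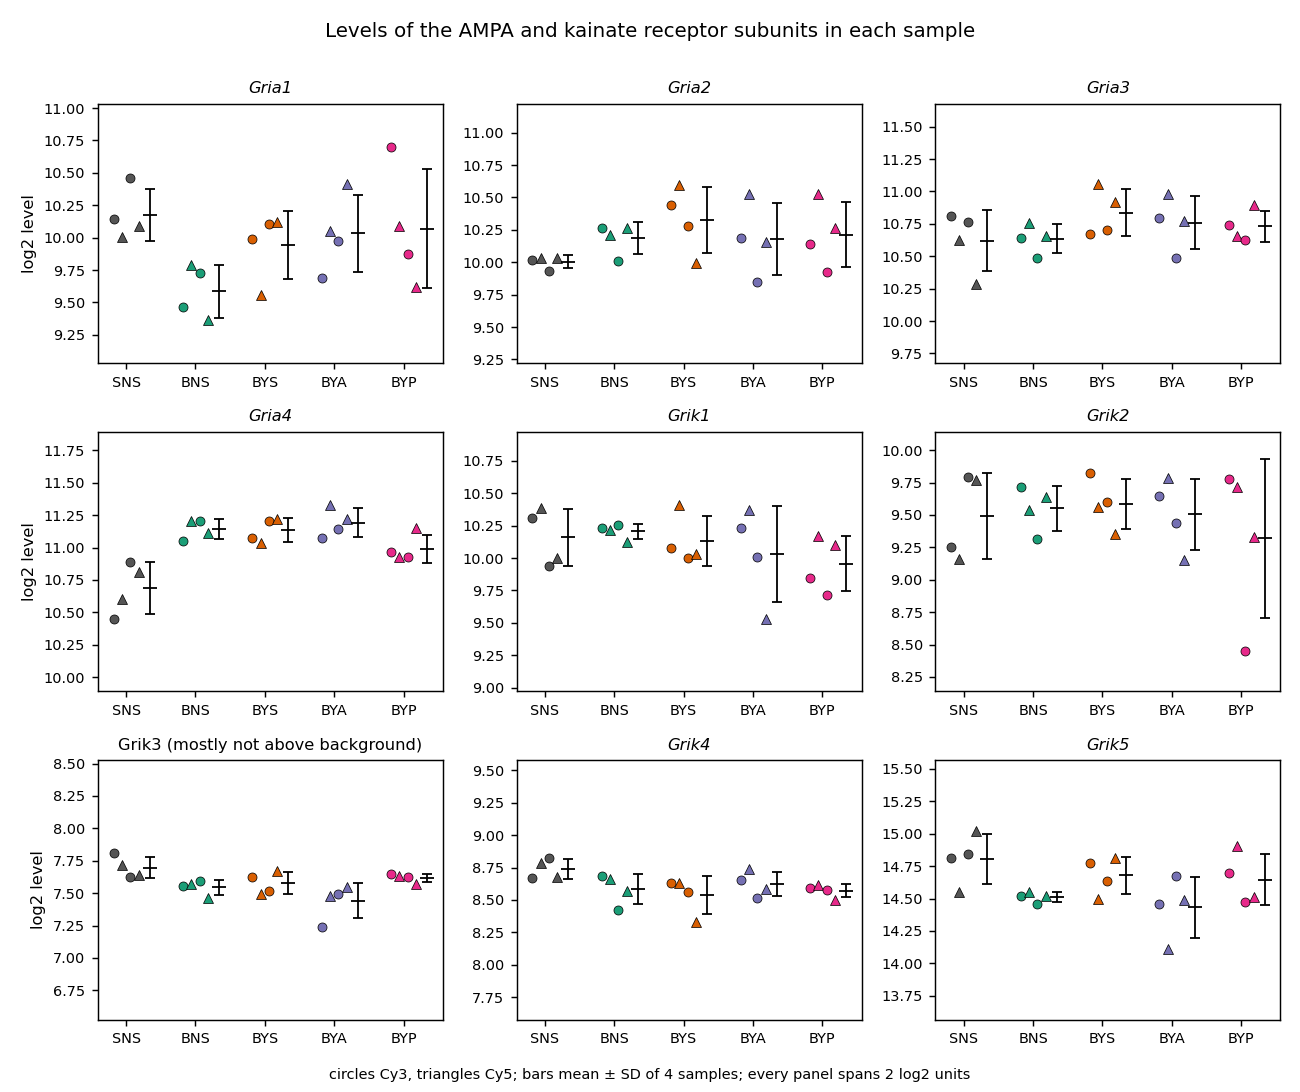
Log2 level (vertical axis) of each member in each of the 20 samples by condition (horizontal axis); circles are Cy3 channels, triangles Cy5 channels, and bars show the mean ± SD of 4 samples. All 16 betamethasone samples lie above the 4 SNS samples in Gria4, the 4 BNS samples lie below the 4 SNS samples in Gria1, and BYP replicate 3 stands at 8.45 in Grik2.

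Among the 4 conditions with prenatal betamethasone, no member was called. This held with limma for BYS against BNS (0.0293% of all genes called), BYA against BNS (0.117%), BYP against BNS (1.5%), BYA against BYS (0%, with 1379 genes at an unadjusted p under 0.05), BYP against BYS (0.0351%) and BYP against BYA (0.158%). At an unadjusted p under 0.05, Gria1 alone of the 8 members passed, in BYA against BNS and in BYP against BNS. Of the 17086 genes tested, 2241 passed at this threshold in BYA against BNS and 3044 in BYP against BNS. The share of all genes called in these comparisons changed with the setting: in BYP against BYS it was 16.5% with median scaling, and in BYP against BNS it was 0% with median scaling (0 genes) and 15.5% with the slide as a random block. With median scaling no member was called in these 6 comparisons, and with the slide block Gria1 alone was, in BYP against BNS (0.48). The slide goes with the condition, so this block cannot separate them, and its fitted correlation within slides was −0.13. For Gria4 the 95% interval of the log2 fold change was −0.21 to 0.20 in BYS against BNS, −0.15 to 0.26 in BYA against BYS and −0.35 to 0.06 in BYP against BYS. For Gria1 it was −0.06 to 0.78 in BYS against BNS, −0.33 to 0.51 in BYA against BYS and −0.29 to 0.54 in BYP against BYS.

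**Figure D2:**
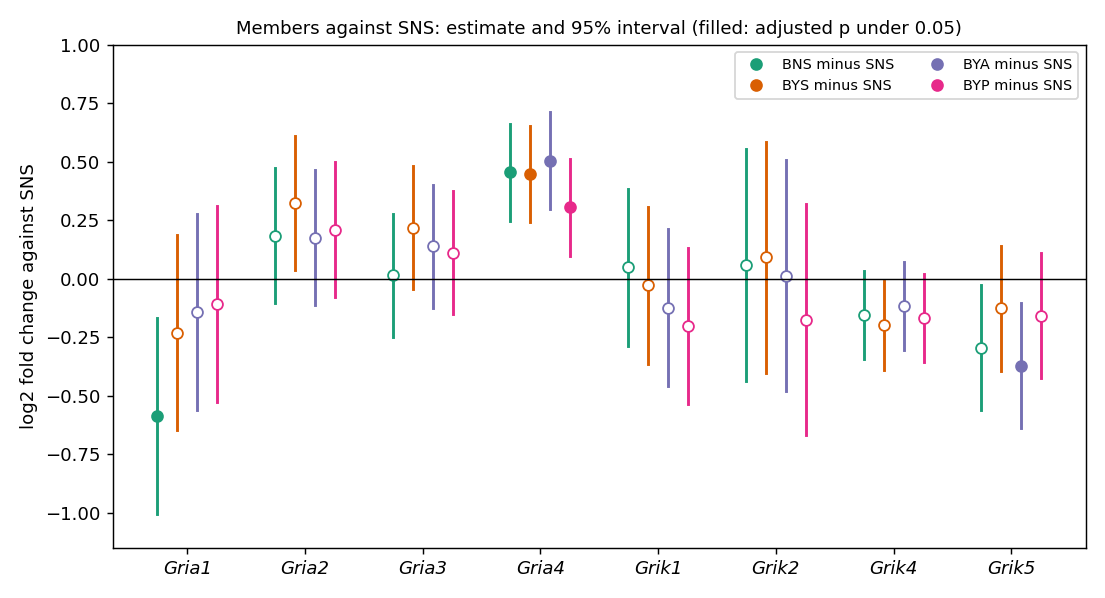
Log2 fold change against SNS (vertical axis) of the 8 members tested, by gene (horizontal axis), in BNS, BYS, BYA and BYP; points are limma estimates, lines 95% intervals, and filled points an adjusted p under 0.05. Gria4 is the member with 4 filled points, at 0.30 to 0.50, and the other filled points are Gria1 in BNS at −0.59 and Grik5 in BYA at −0.37.

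Gria4, the AMPA subunit with the fastest kinetics, had gene levels of 10.45, 10.60, 10.89 and 10.81 in the 4 SNS samples. It stood at 11.05, 11.20, 11.21 and 11.11 in BNS and at 11.08, 11.04, 11.21 and 11.22 in BYS. The levels were 11.08, 11.33, 11.15 and 11.22 in BYA and 10.965, 10.92, 10.93 and 11.15 in BYP. Each of the 16 betamethasone samples thus lay above every SNS sample, as was so for 7.25% of all genes without a missing value. The log2 fold change against SNS was 0.45 ± 0.10 (SE, adjusted p = 0.00252) in BNS, 0.45 ± 0.10 (adjusted p = 0.00294) in BYS, 0.50 ± 0.10 (adjusted p = 0.00102) in BYA and 0.30 ± 0.10 (adjusted p = 0.0278) in BYP. When channels were scaled by their medians instead of quantiles, no Gria4 call was left at the gene level: the log2 fold changes were 0.19 in BNS, 0.52 in BYS and 0.50 in BYA, and that in BYP turned to −0.06. The same calls were lost when the brightest probe stood for the gene, which is the variant 3 probe described below, and with the methods' t-test after Benjamini-Hochberg adjustment. The BYP call was also lost with the array as a random block (adjusted p = 0.0895) and without SNS replicate 1 or 2 or BYP replicate 1 or 4, with log2 fold changes of 0.23 to 0.39 over the 8 samples left out in turn.

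The gene level of Gria4 is the mean of both probes, of which the one for variants 1 and 2 was called in all 4 conditions and the other in none. The former read 9.12, 9.21, 9.55 and 9.33 in SNS. It read 9.77, 9.99, 10.04 and 9.82 in BNS, and 10.22, 9.68, 10.18 and 10.41 in BYS. In BYA it read 10.46, 10.40, 10.09 and 10.14, and in BYP 10.04, 10.49, 9.93 and 10.02. The lowest betamethasone sample, BYS replicate 2, stood above the highest SNS sample, an order that 7.46% of all probes showed. In a fit of each probe on its own, chosen after the data were seen, the log2 fold change against SNS was 0.61 ± 0.16 (SE, adjusted p = 0.00797) in BNS, 0.82 ± 0.16 (adjusted p = 0.000862) in BYS, 0.97 ± 0.16 (adjusted p = 0.00017) in BYA and 0.82 ± 0.16 (adjusted p = 0.00086) in BYP. This amounts to 1.52-fold in BNS and 1.96-fold in BYA. The calls held with the array as a random block (adjusted p of 0.0416, 0.00789, 0.00165 and 0.00785 in the same order) and when any sample of the 2 conditions was left out. The BNS call was lost with median scaling (0.48, adjusted p = 0.113) and with the processed signals of the scanner software (0.44, adjusted p = 0.14), while under both the BYS, BYA and BYP values stayed called (0.60 to 1.02). The BYS call was lost with the methods' t-test after Benjamini-Hochberg adjustment (adjusted p = 0.0502).

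The probe for variant 3 was not called against SNS in any condition. It has 10 spots on each array, among which the SD had a median of 0.27 over the samples. It read 11.78, 12.00, 12.23 and 12.30 in SNS, between 12.33 and 12.41 in BNS, 11.94 and 12.40 in BYS, 11.69 and 12.30 in BYA, and 11.35 and 12.28 in BYP. The 4 BNS samples all lay above those of SNS, and the other conditions overlapped with SNS. The share of all probes with BNS wholly above SNS was not computed. Its log2 fold change was 0.30 ± 0.17 (adjusted p = 0.189) in BNS, 0.07 ± 0.17 (adjusted p = 0.78) in BYS, 0.04 ± 0.17 (adjusted p = 0.888) in BYA and −0.21 ± 0.17 (adjusted p = 0.355) in BYP.

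The level of the variant 3 probe minus that of the probe for variants 1 and 2 was tested in the same way over the 2034 genes with exactly 2 probes kept. This difference was 2.66 to 2.97 among the SNS samples and 2.32 to 2.58 in BNS. It was 1.63 to 2.72 in BYS, 1.24 to 2.15 in BYA and 0.86 to 2.26 in BYP, and BYS replicate 2 was the only sample of BYS, BYA and BYP that reached the SNS range. Against SNS, it moved by −0.31 ± 0.27 (SE, adjusted p = 0.402) in BNS, −0.75 ± 0.27 (adjusted p = 0.0403) in BYS, −0.93 ± 0.27 (adjusted p = 0.0109) in BYA and −1.04 ± 0.27 (adjusted p = 0.00662) in BYP. Probes of a gene moved apart often: the difference was called in 31.3% of these genes in BNS, 31.6% in BYS, 37.9% in BYA and 33.6% in BYP against SNS. With the array as a random block, the BYS and BYA calls were lost (adjusted p = 0.154 and 0.0637), and with the processed signals all 3 were lost (adjusted p = 0.254, 0.164 and 0.0784). The BYS call was also lost when any sample of SNS or BYS other than BYS replicate 2 was left out (−0.98 to −0.59), and those of BYA and BYP were not.

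**Figure D3:**
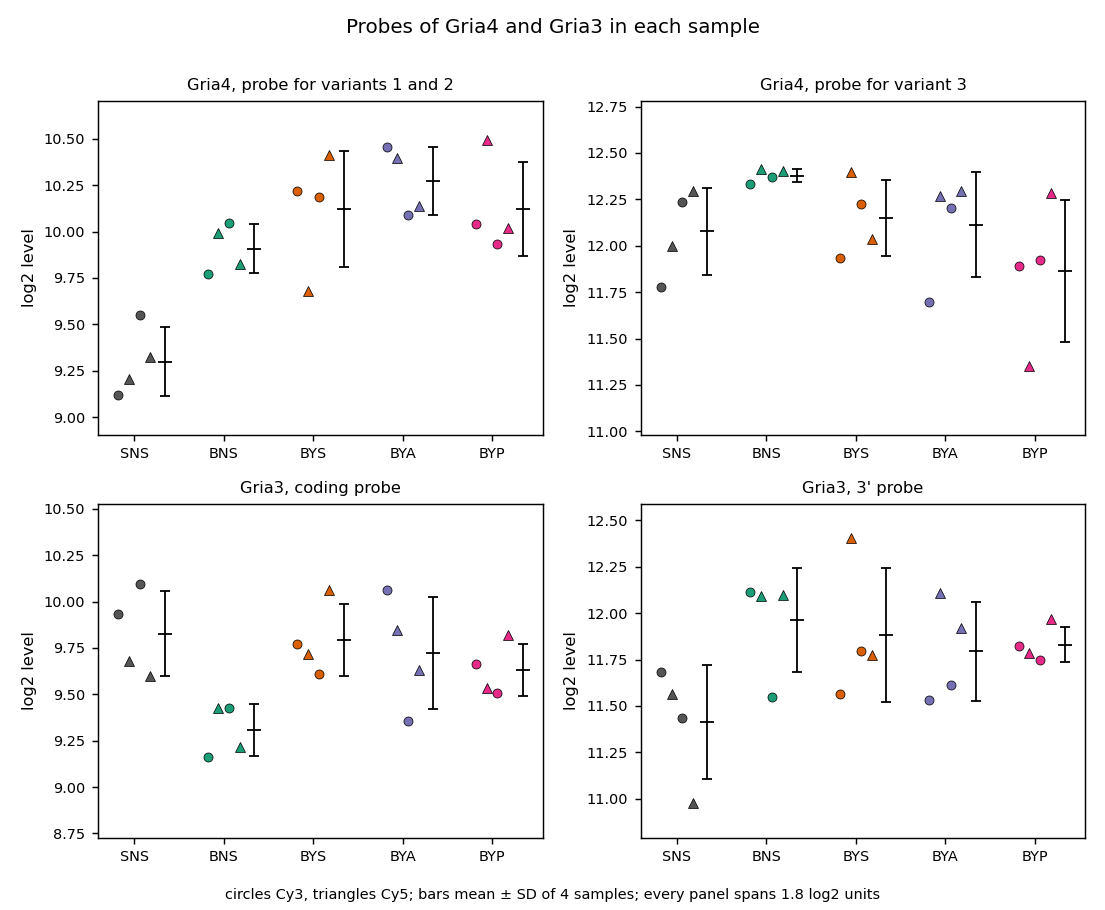
Log2 level (vertical axis) of the Gria4 probes (top) and the Gria3 probes (bottom) in each sample by condition (horizontal axis); circles are Cy3 channels, triangles Cy5 channels, and bars show the mean ± SD of 4 samples. The Gria4 probe for variants 1 and 2 lies between 9.12 and 9.55 in SNS and between 9.68 and 10.49 in the other conditions. In the variant 3 probe BNS lies above SNS, BYA and BYP, and all other pairs of conditions overlap. In Gria3, the BNS samples lie below those of SNS in the coding probe, and 3 of the 4 lie above all SNS samples in the 3′ probe. For the variant 3 probe and the Gria3 probes, the shares of all probes with such an order were not computed.

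Some markers of cell types were called against SNS, beside 27.1% to 31.3% of all genes in the 4 comparisons. Olig2 and Syt1 were higher in all 4 conditions, as was Gria4, and no other marker was called in all 4. Olig2, a transcription factor of the oligodendrocyte lineage, was the 1 of 4 oligodendrocyte precursor markers called, and it was higher than SNS by 1.05 in BNS, 1.27 in BYS, 0.94 in BYA and 1.11 in BYP on the log2 scale (adjusted p from 7.05e-07 to 1.24e-05). The mean level of the 4 markers was 11.56 to 11.83 in SNS and 11.76 to 12.23 over the other conditions. Of 7 general neuron markers, Syt1, a calcium sensor of synaptic vesicles, was higher in all 4 conditions, by 0.50 in BNS, 0.66 in BYS, 0.96 in BYA and 0.74 in BYP, and Map2 was lower in BNS by 0.87. The mean level of these 7 was 12.20 to 12.62 in SNS and 12.46 to 12.92 over the other conditions. None of the 6 oligodendrocyte markers was called against SNS. Of 6 microglial markers, Cx3cr1 was lower by −0.73 in BNS, −1.22 in BYS and −0.61 in BYP, P2ry12 was lower by −0.66 in BYA and −0.98 in BYP, and Itgam was higher in BYP by 0.72. Of 6 astrocyte markers, Gja1 was higher in BNS (0.45) and BYS (0.27), Slc1a2 was lower in BNS (−0.79) and Gfap was higher in BYP (0.86). Of 3 red blood cell markers, Alas2 was higher by 0.99 in BNS, 0.93 in BYS and 1.02 in BYA, and Hbb-b1 by 0.51 in BNS. Of 4 thalamic markers tested, Tcf7l2 was lower in BNS (−0.58), BYA (−0.55) and BYP (−0.49). Lef1 went the other way in BYS (0.34) and BYA (0.27), as did Prkcd in BYP (0.60). Of 10 arcuate neuron markers, Npy (−0.75) and Tac3 (−0.76) were lower in BYS and Tbx3 (−0.67) in BNS. The ventromedial marker Adcyap1 was higher in BYS (0.59). The ependymal marker Foxj1 was lower in BYA (−0.53) and BYP (−0.58), and the choroid plexus marker Folr1 in BYA (−0.86). These markers are named after their values were seen. The part of these cells in the Gria4 values was not tested.

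The 3 genes whose pattern over the 20 samples was most like that of Gria4, after removal of the dye effect, were Naa35 (Pearson r = 0.94), Chchd7 (r = 0.93) and Cdip1 (r = 0.92), out of 16298 genes searched. The points share their slides and their normalization, and r is given as a description. Among the members themselves, r over the 20 samples ran from −0.50 for Gria1 with Grik1 to 0.50 for Gria2 with Grik2.

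Gria1, the AMPA subunit whose delivery to synapses underlies forms of plasticity, was lower in BNS than in SNS. Its levels were 10.14, 10.003, 10.46 and 10.09 in SNS and 9.47, 9.79, 9.73 and 9.36 in BNS, so that these conditions did not overlap. The share of all genes without overlap in this comparison was not computed. The other levels of Gria1 follow. These were 9.99, 9.56, 10.11 and 10.12 in BYS, 9.69, 10.05, 9.98 and 10.41 in BYA, and 10.696, 10.09, 9.87 and 9.62 in BYP. All 3 conditions with spasms overlapped with both SNS and BNS. The log2 fold change in BNS against SNS was −0.59 ± 0.20 (SE, adjusted p = 0.0345), and those of BYS, BYA and BYP were −0.23 (adjusted p = 0.406), −0.14 (adjusted p = 0.613) and −0.11 (adjusted p = 0.713). The BNS call was lost with the array as a random block (adjusted p = 0.104), with the processed signals (adjusted p = 0.0938) and when SNS replicate 1, 3 or 4 or BNS replicate 1 or 4 was left out (−0.68 to −0.50 over the samples left out in turn). Gria1 was also the member that went most with the signal of the samples: its Pearson r with the log2 ratio of signal to background was −0.58 over the 20 samples and −0.52 over the 16 without SNS, and the part of signal strength in its values was not tested.

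**Figure D4:**
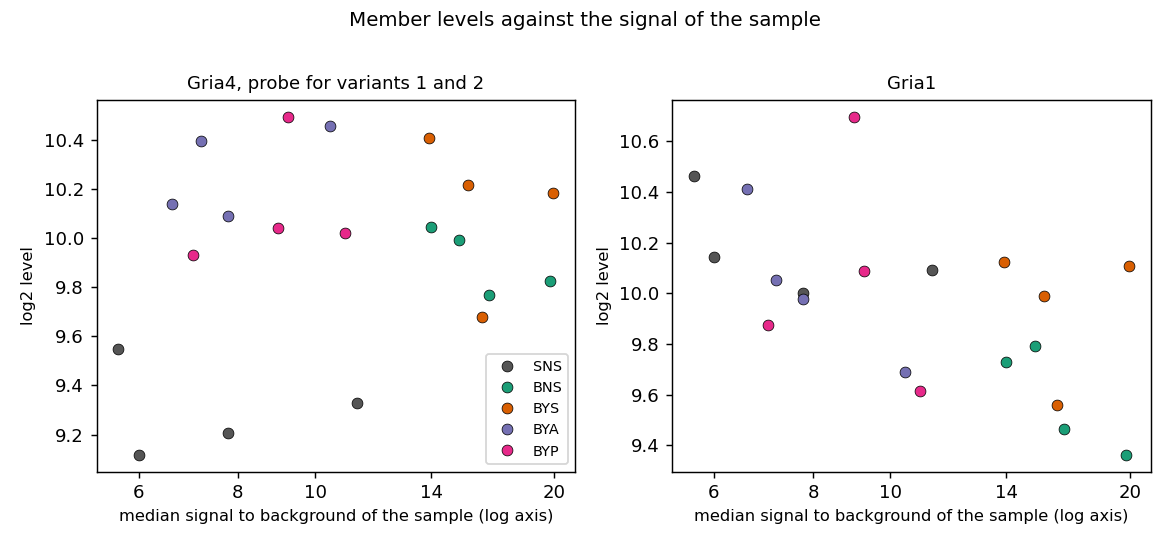
Log2 level (vertical axis) of the Gria4 probe for variants 1 and 2 (left) and of Gria1 (right) against the median ratio of signal to background of the sample (horizontal log axis), with 1 point per sample coloured by condition. In the Gria4 probe, SNS samples (ratios of 5.66 to 11.3) read 9.12 to 9.55 and BYA samples (6.60 to 10.4) read 10.09 to 10.46. SNS and BYA lie on different slides, and the part of signal strength in the Gria4 values was not tested. Gria1 had a Pearson r of −0.58 with the log2 ratio over the 20 samples. At high ratios, it read 9.36 to 9.79 in BNS (ratios of 14.0 to 19.8) and 9.56 to 10.12 in BYS (13.9 to 19.9).

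A further probe, described in the files as glutamate receptor 1 but named by an Ensembl transcript that is also listed for the Gria1 probe, lies at chr10:42616550-42616609 (plus strand, build rn4). It was named after its values were seen and is no member by the rule. It read 9.76, 8.49, 8.20 and 8.00 in SNS and 7.81, 7.89, 7.19 and 7.55 in BNS, and it was well above background in 14 of 20 samples, 2 of them in BNS. Its log2 fold change in BNS against SNS was −0.9996 ± 0.26 (SE, limma adjusted p = 0.00868) and −0.61 without SNS replicate 1 (limma adjusted p = 0.0129). It was not called with median scaling (−0.58, adjusted p = 0.229), with the 8 samples of the comparison alone (adjusted p = 0.0743) or by the methods' t-test. With the processed signals the value was −2.38 (adjusted p = 0.0113).

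Gria2, the subunit that makes AMPA channels calcium-impermeable, passed no test as a gene. The gene levels were 9.93 to 10.04 in SNS. Those of BNS were 10.01 to 10.27 and those of BYS 9.997 to 10.60. BYA had 9.84 to 10.53 and BYP 9.92 to 10.53. Of the 16 betamethasone samples, 12 lay above all SNS samples, and the share of all genes with as many was not computed. Its log2 fold changes against SNS were 0.18 to 0.32, with an adjusted p of 0.0875 in BYS. Its coding probe, shown above, read 11.47 to 11.59 in SNS and 11.54 to 12.46 in BYS. It passed the test in BYS (0.61 ± 0.21, adjusted p = 0.0354) and BYA (0.56 ± 0.21, adjusted p = 0.0461) of the probe fit, though not in BNS or BYP. Neither call held with the array block or the processed signals, and the BYS call was lost without any one of 6 of the 8 samples (0.47 to 0.85) and the BYA call without any one of the 8 (0.41 to 0.62). The other Gria2 probe, farther to the 3′ end (chr2:172265169-172265228, minus strand), was well above background in 16 of 20 samples and was not called.

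Gria3, an X-linked AMPA subunit that often pairs with Gria2, passed no test as a gene, with log2 fold changes against SNS of 0.01 to 0.22. Its probes, both listed for transcript variants 1 and 2, moved in opposite directions in BNS. The coding probe shown above read 9.93, 9.68, 10.10 and 9.60 in SNS and 9.16, 9.42, 9.43 and 9.22 in BNS, a log2 fold change of −0.52 ± 0.15 (SE, adjusted p = 0.0151). The 3′ probe (chrX:3452571-3452630, minus strand) read 11.68, 11.57, 11.43 and 10.98 in SNS and 12.12, 12.09, 11.55 and 12.10 in BNS, a log2 fold change of 0.55 ± 0.18 (adjusted p = 0.0267). Their averaging left the gene at 0.01 ± 0.13 in BNS. The 3′ probe minus the coding probe was 1.34 to 1.89 in SNS and 2.12 to 2.96 in BNS, a shift of 1.07 ± 0.22 (adjusted p = 0.00112), which stayed called in 10 of 11 settings and without any of the 8 samples, and was not called with median scaling (0.85, adjusted p = 0.0742). Neither probe alone was called with the array block (adjusted p = 0.0761 and 0.114); the coding probe also lost its call without SNS replicate 3 or BNS replicate 1 (−0.60 to −0.42), and the 3′ probe without SNS replicate 4 or BNS replicate 1, 2 or 4 (0.36 to 0.68). The 3′ probe was in addition not called with median scaling (0.23, adjusted p = 0.621), with the processed signals (0.26, adjusted p = 0.327), with the 8 samples alone or by the methods' t-test, and so lost its call in 6 of 12 settings.

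In the fit of single probes, 4 member probes were called in BNS against SNS (those of Gria1, both of Gria3 and the Gria4 probe for variants 1 and 2), where 28.7% of all probes were called. In BYS against SNS, 2 of 13 were called (27.4% of all probes), in BYA 3 of 13 (31.9%) and in BYP 2 of 13 (29.2%). Among the betamethasone conditions, none of the 13 was called in BYS against BNS (0.0251% of all probes), BYA against BNS (0.0151%), BYP against BNS (1.23%), BYA against BYS (0%), BYP against BYS (0.0201%) or BYP against BYA (0.0654%).

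Of the kainate subunits that form channels on their own, Grik1 and Grik2 did not differ from SNS as genes and Grik3 was near background. Grik1 levels were 9.94 to 10.39 in SNS and 10.12 to 10.25 in BNS. With spasms they were 10.003 to 10.41 in BYS, 9.53 to 10.37 in BYA and 9.71 to 10.17 in BYP. Its log2 fold changes against SNS ran from −0.20 in BYP to 0.05 in BNS (adjusted p of 0.348 or more). The Grik1 probe at the end of the coding sequence (chr11:27704155-27704214, minus strand) read 10.31, 10.44, 10.31 and 10.52 in SNS and 9.87, 9.88, 9.63 and 10.30 in BYP. Its log2 fold change in BYP was −0.47 ± 0.14 (SE, adjusted p = 0.0206), lost with the array block (adjusted p = 0.0778) and without BYP replicate 2 or 3 (−0.58 to −0.39 over the samples left out). The probe is shown because it was the only kainate probe besides that of Grik5 to be called.
Grik1: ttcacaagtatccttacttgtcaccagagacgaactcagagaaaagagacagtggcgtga

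Grik2 had levels of 9.16 to 9.79 in SNS and 9.32 to 9.71 in BNS. With spasms they were 9.35 to 9.82 in BYS, 9.15 to 9.78 in BYA and 8.45 to 9.78 in BYP. Its log2 fold changes against SNS were −0.18 to 0.09, with a 95% interval in BYP of −0.67 to 0.32. The interval rests on the spread over all samples. The SD was 0.61 in BYP, 0.33 in SNS and 0.17 to 0.27 in the other conditions. In BYP replicate 3, the Grik2 probe at chr20:53230626-53230685 (minus strand) read 7.66 and was not well above background, against 9.12 to 10.17 in the other BYP samples. The probe at chr20:53231518-53231577 read 9.24 to 9.53 in all 4 BYP samples. The difference between these probes shifted by −1.28 ± 0.37 in BYP against SNS (limma adjusted p = 0.0135), and by −0.78 without BYP replicate 3 (limma adjusted p = 0.0471). It was not called with the processed signals (adjusted p = 0.226), with the 8 samples alone (adjusted p = 0.0929) or by the methods' t-test with or without adjustment. Grik3 has 1 probe (chr5:145057988-145058047, plus strand), which was well above background in 2 of 20 samples, 1 in BNS and 1 in BYS, and in none of SNS, BYA or BYP. No fold is given for it.

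Of the subunits that need a partner, Grik5 was lower in BYA than in SNS. Its single probe (chr1:80313819-80313878, minus strand) was well above background, and not saturated, in all 20 samples. The levels were 14.81, 14.55, 14.84 and 15.02 in SNS and 14.46, 14.11, 14.675 and 14.485 in BYA, which overlap by BYA replicate 3 and SNS replicate 2. They were 14.52, 14.55, 14.46 and 14.52 in BNS, all below the lowest SNS sample by a small margin, 14.50 to 14.81 in BYS and 14.47 to 14.90 in BYP. The share of all genes with BNS wholly below SNS was not computed. The log2 fold change was −0.37 ± 0.13 (SE, adjusted p = 0.0334) in BYA and −0.29 ± 0.13 (adjusted p = 0.0896) in BNS. The BYA call was lost with the array block (adjusted p = 0.108), with median scaling (adjusted p = 0.316) and without SNS replicate 1, 3 or 4 or BYA replicate 1 or 2 (−0.46 to −0.27 over the samples left out), and the value turned to 0.08 with the processed signals.

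Grik4 has 1 probe with 10 spots on each array (chr8:45514232-45514291, minus strand), whose SD between spots had a median of 0.17. It read 8.67, 8.79, 8.83 and 8.68 in SNS, and 14 of the 16 betamethasone samples, at 8.33 to 8.74 in all, lay below the lowest of these. The log2 fold changes against SNS were −0.15 ± 0.09 in BNS, −0.20 ± 0.09 in BYS, −0.12 ± 0.09 in BYA and −0.17 ± 0.09 in BYP, with an adjusted p of 0.105 in BYS and more in the others. BYS and BYP did not overlap with SNS, while BNS and BYA did, and none of the differences passed the test. The shares of all genes without overlap, or with as many samples below SNS, were not computed.

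The order of the conditions by mean level differed from gene to gene. It ran BYA, BNS, BYS, BYP, SNS for Gria4, and BYP against SNS was the only neighbouring pair called. In Gria1 it ran SNS, BYP, BYA, BYS, BNS, with no neighbouring pair called. SNS was the lowest condition in Gria2, Gria3 and Gria4 and the highest in Gria1, Grik4 and Grik5. For the 7 members other than Gria4, none of the 4 neighbouring pairs in the order was called.

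Among 16 auxiliary proteins of AMPA receptors, 12 were tested. In BNS against SNS, 3 of the 12 were lower and none was higher, where 28.6% of all genes were called, so that the share was no larger than over all genes. They were Cpt1c, which assists export of AMPA receptors from the endoplasmic reticulum, by −0.64 ± 0.22 (SE, adjusted p = 0.0376), Cacng7, a TARP, by −0.59 ± 0.13 (adjusted p = 0.00315), and Gsg1l, which slows recovery from desensitization, by −0.42 ± 0.15 (adjusted p = 0.0381). In BYS, Cacng7 (−0.45) and Shisa8 (−0.38) were lower. In BYA, Cnih2, a cornichon that helps export and gating, was higher by 0.93 ± 0.30 (adjusted p = 0.0243), and the TARP Cacng8 was higher by 0.43 ± 0.13 (adjusted p = 0.0196). In BYP, Cacng8 was higher (0.39) and Cacng7 lower (−0.40). The median log2 fold change over the 12 was −0.06 in BNS, −0.03 in BYS, 0.02 in BYA and −0.06 in BYP, against −0.04, −0.03, −0.04 and −0.04 over all genes. Of these calls, Cacng7 in BNS was kept with the array as a random block (adjusted p = 0.016), and none was kept with median scaling.

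Of 17 scaffold and trafficking genes tested, 3 were lower in BNS, a smaller share than the 28.6% of all genes called. They were the scaffold Dlg2 by −0.51 ± 0.12 (adjusted p = 0.00515), and Grip2 and Grip1, which bind the tails of AMPA subunits, by −0.49 ± 0.16 (adjusted p = 0.0323) and −0.44 ± 0.12 (adjusted p = 0.0143). None was called in BYS or BYA. In BYP, Nptx1, a pentraxin that clusters AMPA receptors, was higher by 0.78 and Lrrtm2, an adhesion protein that holds them, lower by −0.37. Dlg2 in BNS stayed called with both the array block (adjusted p = 0.04) and median scaling (adjusted p = 0.0132). Grip1 was kept with the former alone, and Grip2 and Lrrtm2 with the latter alone. Of 3 kainate auxiliary and ligand genes tested, Neto1 was lower in BYA by −0.72 ± 0.25 (adjusted p = 0.0346). This call was lost with the array block (adjusted p = 0.113) and with median scaling (−0.79, adjusted p = 0.132). Neither of the 2 RNA editing enzymes and neither of the 2 delta receptors tested was called against SNS.

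Of the 7 NMDA receptor subunits, 3 were lower in BNS and none higher, beside 28.6% of all genes called. They were Grin2a by −0.86 ± 0.24 (adjusted p = 0.0139), Grin2c by −0.66 ± 0.20 (adjusted p = 0.0185) and Grin1, the obligatory subunit, by −0.48 ± 0.15 (adjusted p = 0.026). In BYS none was called, in BYA Grin2b was higher by 0.22, and in BYP Grin2d was higher by 0.78. With the array block, of these Grin2a in BNS alone was kept (adjusted p = 0.0329), and with median scaling Grin2c in BNS alone (adjusted p = 0.021).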

How the data were processed

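Total RNA of the arcuate nucleus was hybridised to 11 Agilent arrays on 6 slides, with 1 animal per dye channel. The deposited intensities are, per the file headers, spot and background signals extracted with Feature Extraction 11.5.1.1 (the submitters' processing notes name 10.7.3.1); coordinates are those of the array design, build rn4. Mean intensities were corrected with normexp (offset 50) and quantile-normalized over the 20 channels with limma 3.58.1 in R 4.3.3; control spots and outlier spots (1.18%) were left out. The authors' processed signals served as an alternative. The 82 columns that belong to animals of another series were not used. Spots of a probe and then probes of a gene were averaged, and 61.4% of probes were matched to RefSeq by accession. A probe was kept if it was well above background in every sample of at least 1 condition (for probes with several spots, in a share of at least 0.5 of them). Tests were limma fits with Benjamini-Hochberg adjustment over all genes, probes or probe pairs; calls are at an adjusted p under 0.05, and SE is the moderated standard error. The fits of single probes and of probe differences were chosen after the data were seen. Replicates are separate rats.

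Alternatives were median scaling, the processed signals, no background correction, loess with Aquantile, no filter, the brightest probe, no dye term, blocks for array, slide or replicate number, the 8 samples compared alone, the methods' t-test and leaving out each sample. All 9 members are named, with up to 3 called genes of each list that have the largest changes; for the members called by the F-test, the 3 most similar genes are named. The members and lists were chosen with earlier results of these data known. The fits were tested on simulated data with known changes. With 4 against 4 samples, an exact permutation test of a single value cannot give a p below 0.0286.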

Additional observations from a re-analysis of the deposited data

Results flagged for a closer look

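In 6 of 95 sets of 4 samples of a condition, 1 sample lay far from the other 3 by Dixon's criterion, which chance exceeds in about 1 in 20 sets. The Gria2 probe at the 3′ end read 8.81 in BYS replicate 2 and 8.397 to 8.45 in the other BYS samples. The coding probe of Gria2 read 11.57 in BNS replicate 3, against 11.98 to 12.03 in the other BNS samples, and 12.57 in BYA replicate 2, against 11.87 to 11.97. The Gria3 3′ probe stood at 11.55 in BNS replicate 3, with the others at 12.09 to 12.12. The Gria4 probe for variant 3 read 11.69 in BYA replicate 1 and 12.20 to 12.30 in the other BYA samples. The Grik1 probe at chr11:27722939-27722998 (build rn4) read 10.45 in BYP replicate 2, while the other BYP samples read 9.80 to 9.90.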

How the results depend on the processing

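Over the 5 conditions, 1 member (Gria4) was called by the F-test, 0 with median scaling or with the brightest probe of each gene, 3 with slide as a random block, and 1 without any one sample. Percentages in brackets are the shares of all genes called in the same comparison and setting. In BNS against SNS, 2 members were called (28.6%). The count was 1 with median scaling (15.5%), the processed signals (13.7%), the array block (15.2%) or the methods' t-test after Benjamini-Hochberg adjustment (18.8%). With that t-test at an unadjusted p under 0.05 it was 4 (38.1%), and it was 1 to 3 without single samples. In BYS against SNS the count was 1 (27.1%). It was 0 under median scaling (8.47%) and the adjusted t-test (13.5%), and 3 with the slide block (46.0%). With the replicate block it was 2 (28.5%), and without single samples 1 to 2. In BYA against SNS the count was 2 (31.3%). It was 0 under median scaling (8.20%) and the adjusted t-test (9.11%). The processed signals (11.4%), the array block (19.4%) and the 8 samples alone (17.7%) gave 1, and 1 to 2 were called without single samples. In BYP against SNS the count was 1 (28.9%). It was 0 under median scaling (28.7%), the processed signals (15.9%), the array block (15.5%), the 8 samples alone (18.5%) and the adjusted t-test (11.8%). The slide block (47.6%) and the unadjusted t-test (32.8%) gave 2, and 0 to 1 were called without single samples. Among the betamethasone conditions the count was 0, except 1 in BYP against BNS with the slide block (15.5%) and 1 in BYP against BYA by the unadjusted t-test (8.66%). The other listed genes tested were 12 AMPA auxiliary, 17 scaffold and trafficking, 3 kainate auxiliary and ligand, 2 editing, 2 delta and 7 NMDA receptor genes. Of these, 9 were called in BNS against SNS (all genes 28.6%), 2 in BYS (27.1%), 4 in BYA (31.3%) and 5 in BYP (28.9%). With the array block these counts were 4 (15.2%), 0 (13.9%), 0 (19.4%) and 0 (15.5%). With median scaling they were 4 (15.5%), 0 (8.47%), 0 (8.20%) and 5 (28.7%). Each count was a smaller share than that over all genes. Under median scaling the all-gene median of the log2 fold changes against SNS moved to −0.14 in BNS, −0.13 in BYS, −0.06 in BYA and −0.11 in BYP. Values that turned were Grik5 in BYA with the processed signals (0.0798, for the gene and its probe) and Gria4 in BYP with median scaling (−0.0626) and with the brightest probe (−0.21). Over all genes, median scaling raised the calls in BYP against BYS from 6 to 2820, and the slide block those in BYP against BNS from 257 to 2652. The slide block had a fitted correlation of −0.13 and cannot separate the slide from the condition. The causes were not tested.

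Same-numbered samples of different conditions did not deviate together (mean correlation 0.0031, range −0.24 to 0.28), so the numbers give no pairing; the replicate block moved 1 count of member calls, in BYS, from 1 to 2. The brightest probe could not be used for fits of single probes or probe differences, nor the F-test with 8 samples or the t-test. The number of arrays and the signal over background limit the precision; Grik3 was too dim to be tested.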
